A study of Sus scrofa with 36 samples.

Results

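Microglia are the resident macrophages of the brain, and 10 genes that mark them (AIF1, CX3CR1, P2RY12, P2RY13, TMEM119, CSF1R, TREM2, TYROBP, ITGAM and CD68) were followed in the cerebellum of piglets. The genes were taken by name from a list. Of the 10, 9 had an identifier among the 31907 pig genes counted, and all 9 passed the filter on low counts, together with 15356 genes in all. TMEM119 had no identifier in the gene name table and is named only. The 4 groups combined a formula diet, based on either vegetable oil (VEG) or fat from bovine milk (MILK), with normal birth weight (NBW) or intrauterine growth restriction (IUGR), with 9 piglets in each. All were term-born crosses of Danish landrace, Yorkshire and Duroc from several litters, were 3 days old when the study began, and received their formula for 3 weeks. The series holds no sow-reared group. Growth restriction was not induced, and IUGR piglets were selected on a farm by low birth weight and an altered head shape. Groups held both sexes, with 18 females and 18 males in total, and each piglet gave 1 library.

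Microglia enter the brain early in development, renew themselves there, and survive only while CSF1R is signalling. They sense neurons and damage through surface receptors such as CX3CR1, which binds a neuronal chemokine, and P2RY12, which binds released nucleotides, and they clear debris and lipid through TREM2 and its signalling partner TYROBP. In the young cerebellum they are known for engulfing dying cells and synapses while the granule layer and the white matter are still forming.

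Levels are given in CPM, counts per 1000000 read pairs on genes, with library sizes scaled by TMM. Total counts on genes ranged from 7936202 to 23027502 per library. In 3 libraries the share of read pairs not assigned to a gene stood apart from the group, at 43.6% (VEG-NBW piglet 202), 64.3% (VEG-IUGR piglet 210) and 31.5% (MILK-NBW piglet 213), against 26.7% to 30.5% in the other 33. The values below are from these 33 libraries (9 MILK-IUGR piglets and 8 in each other group), which leaves 1 library out of each of the groups in which the study excluded a sample for low RNA integrity. Piglet 210 also listed counts for only 6513 genes. Its counts were 845 for CSF1R, 642 for AIF1 and 412 for TYROBP, while CX3CR1, P2RY12, P2RY13, TREM2, ITGAM and CD68 all stood at 0. In piglet 202, CSF1R had 310 counts and TREM2 23, both below every one of the 33 libraries. The markers of cerebellar tissue were present throughout, with granule neuron genes summing to 3818 to 5989 CPM in the 33.

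No difference between diets, birth weights or sexes, and no interaction, was detected for any of the 9 genes. No member had an adjusted p under 0.05 between diets, between birth weights or for their interaction in edgeR's quasi-likelihood test with Benjamini-Hochberg adjustment over all genes tested, where the background was also 0% of genes in each of these 3 comparisons. At an unadjusted p under 0.05, 0 of 9 members passed for diet against 4.26% of all genes, 0 of 9 for birth weight against 2.19%, and 0 of 9 for the interaction against 6.09%. DESeq2 and limma voom with quality weights likewise called 0 members in these and the other 5 comparisons below, with 0 at an unadjusted p under 0.05. In bulk tissue, fewer microglia and less of an RNA per microglial cell cannot be told apart, and this holds for every level given here. For each gene the values are the lowest, median and highest CPM of each group, and log2 differences as the estimate ± SE of edgeR's fit with sex as a covariate.

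**Figure D1:**
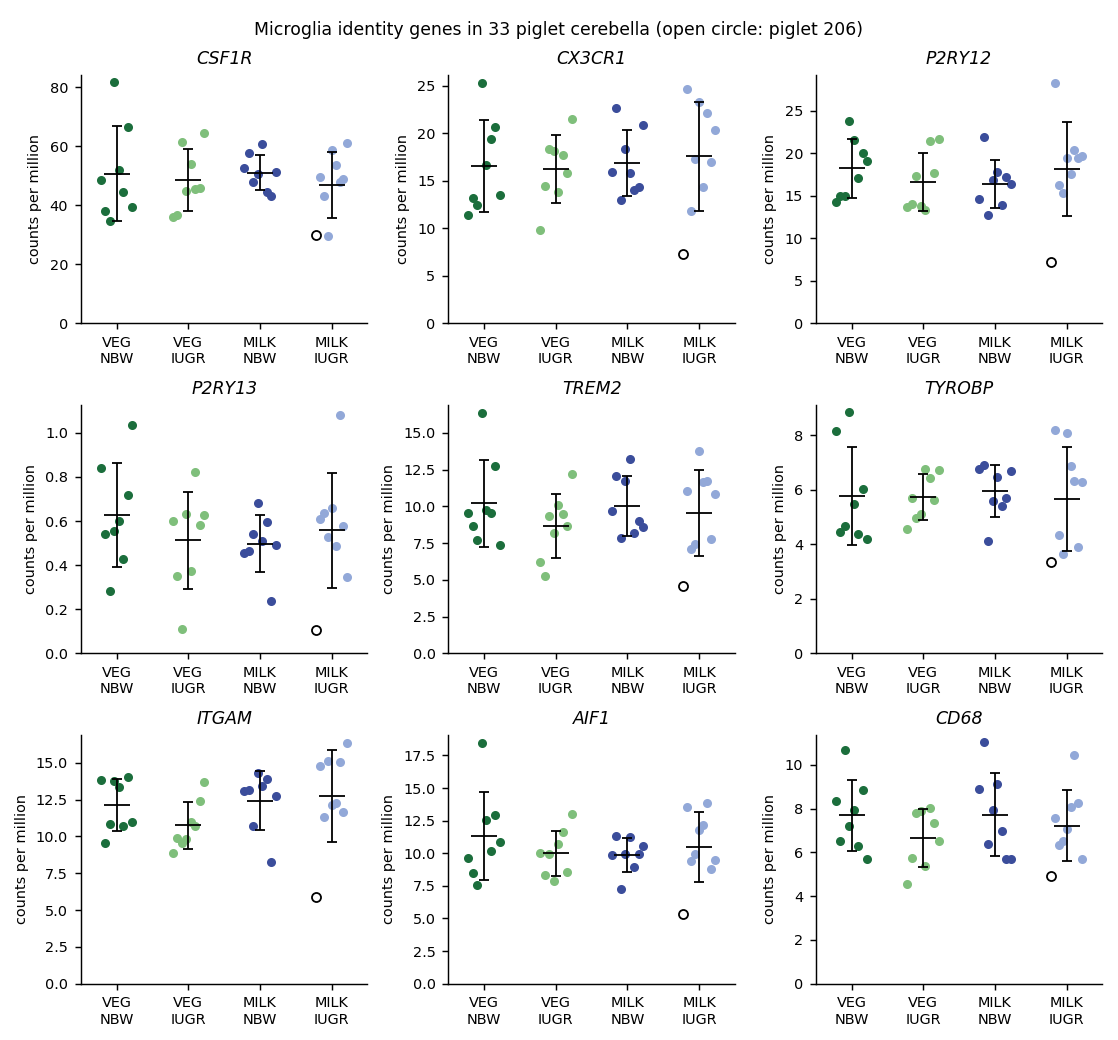
CPM of the 9 microglia identity genes (1 panel each, linear axis from 0) in 33 piglets, with groups along the horizontal axis, 1 point per piglet, and the mean ± SD in black. In every panel the 4 groups overlap, and piglet 206 of MILK-IUGR (open circle) is the lowest point for 7 of the 9 genes.

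The receptors at the cell surface are given first. CSF1R (chromosome 2, 151102138 to 151130311, build Sscrofa11.1) is the receptor for CSF1 and IL34, on which microglia depend to survive. Its CPM in VEG-NBW was 34.7, 46.5 and 81.6 (lowest, median, highest), and in VEG-IUGR it was 35.8, 45.7 and 64.6. In MILK-NBW it was 43.2, 50.9 and 60.7, and in MILK-IUGR it was 29.4, 48.7 and 61.1. MILK-NBW had the narrowest range and lay wholly inside that of VEG-NBW, whose highest piglet, number 216, was the highest of all. The log2 difference of CSF1R was -0.021 ± 0.11 for MILK minus VEG, it was -0.088 ± 0.11 for IUGR minus NBW, and -0.045 ± 0.22 for the interaction. All 3 estimates were smaller than their SE.

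CX3CR1 (chromosome 13, 23944386 to 23957567), the receptor for fractalkine on neurons, ranged over 11.4, 15.1 and 25.3 CPM in VEG-NBW and 9.797, 16.8 and 21.5 in VEG-IUGR. MILK-NBW had 12.96, 15.8 and 22.6, and MILK-IUGR had 7.25, 17.3 and 24.7. The MILK-IUGR group alone spanned nearly the whole range of the 33 piglets, with piglet 206 at its lower end. Its estimate was 0.074 ± 0.13 log2 between diets and 0.012 ± 0.13 between birth weights, and its interaction was 0.088 ± 0.27. The RefSeq gene LOC110256576 overlaps its span, and the strand setting of the counting is not given in the sources used here.

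P2RY12 (chromosome 13, 91522754 to 91572195), the nucleotide receptor that steers microglial processes and is lost when the cells become activated, stood at 14.3, 18.1 and 23.9 CPM in VEG-NBW and 13.3, 15.7 and 21.7 in VEG-IUGR. Its values were 12.7, 16.6 and 21.9 in MILK-NBW and 7.198, 19.4 and 28.2 in MILK-IUGR. Both the lowest piglet (206) and the highest (207) were in MILK-IUGR. The estimate was -0.0076 ± 0.12 log2 between diets and 0.0028 ± 0.12 between birth weights, both close to 0. Its interaction was 0.27 ± 0.23 (95% interval -0.20 to 0.74), where VEG-NBW and MILK-IUGR had the higher means and the SE covers most of the estimate.

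P2RY13 (chromosome 13, 91509441 to 91513687) lies beside P2RY12 and codes for a related ADP receptor. Few reads fell on it, with 2 to 20 counts per library, and its CPM was 0.285, 0.578 and 1.04 in VEG-NBW, 0.109, 0.5899 and 0.824 in VEG-IUGR, 0.238, 0.5004 and 0.683 in MILK-NBW and 0.106, 0.578 and 1.08 in MILK-IUGR. The groups overlapped, and at these counts a difference of moderate size was not detectable. The diet estimate was -0.068 ± 0.22 log2, the birth weight estimate -0.083 ± 0.22 and the interaction 0.40 ± 0.43, with SEs that exceeded those of the other 8 genes. Both receptors overlap the span of MED12L, and whether reads of that gene entered their counts was not tested.

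TREM2 (chromosome 7, 36465921 to 36471509), the receptor for lipids and apolipoproteins that drives the phagocytic state, was 7.403, 9.55 and 16.3 CPM in VEG-NBW and 5.29, 8.97 and 12.2 in VEG-IUGR. In the MILK groups it was 7.83, 9.34 and 13.2 for NBW and 4.55, 10.9 and 13.7 for IUGR. VEG-IUGR had the lowest mean, 8.68 ± 2.18 (SD, n = 8), and VEG-NBW had the highest, 10.2 ± 2.96 (SD, n = 8), which differ by less than either SD. The estimate for birth weight was -0.15 ± 0.13 log2, that for diet was 0.058 ± 0.13, and the interaction was 0.17 ± 0.26.

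TYROBP (chromosome 6, 45309199 to 45312562), the adaptor through which TREM2 signals, was at 4.19, 5.07 and 8.84 CPM in VEG-NBW and 4.55, 5.66 and 6.74 in VEG-IUGR. It was at 4.102, 6.09 and 6.92 in MILK-NBW and 3.33, 6.27 and 8.17 in MILK-IUGR. Its group means were the closest of the 9 genes, the highest being 1.05 times the lowest. The estimates for TYROBP were 0.013 ± 0.12 log2 between diets and -0.043 ± 0.12 between birth weights, with an interaction of -0.070 ± 0.25.

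ITGAM (chromosome 3, 17216719 to 17272134), the alpha chain of complement receptor 3, with which microglia take up complement-tagged material, was 9.54, 12.2 and 14.04 CPM in VEG-NBW and 8.897, 10.3 and 13.7 in VEG-IUGR. The MILK-NBW values were 8.26, 13.1 and 14.3, and the MILK-IUGR values were 5.87, 12.3 and 16.4. VEG-IUGR had the lowest median, yet its highest piglet was above the median of every other group. Over the 33 libraries the diet estimate was 0.14 ± 0.10 log2 (unadjusted p = 0.148, adjusted p = 0.985, edgeR), and within IUGR piglets it was 0.24 ± 0.14 (unadjusted p = 0.0861, adjusted p = 0.996). Birth weight gave -0.072 ± 0.10 and the interaction 0.20 ± 0.20. Without piglet 206, a setting chosen after its values were seen, the log2 difference was 0.19 ± 0.080 for diet (edgeR unadjusted p = 0.0217, adjusted p = 0.955) and 0.34 ± 0.11 within IUGR piglets (unadjusted p = 0.004101, adjusted p = 0.916), so it was still not called. In that setting 1 of 9 members had an unadjusted p under 0.05 for diet, beside 719 of 15325 genes tested. Within IUGR piglets it was also 1 of 9, beside 801 of 15325 genes. LOC110259903 overlaps the span of ITGAM.

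AIF1 (chromosome 7, 23711752 to 23731191) codes for the actin-binding protein IBA1, the usual stain for microglia, and overlaps LST1 and NCR3. It ranged over 7.57, 10.5 and 18.4 CPM in VEG-NBW and 7.84, 9.95 and 12.98 in VEG-IUGR, and over 7.23, 9.94 and 11.4 in MILK-NBW and 5.35, 9.91 and 13.8 in MILK-IUGR. The 4 medians lay close together, while VEG-NBW held the single highest piglet (216) and MILK-IUGR the lowest (206). AIF1 had estimates of -0.062 ± 0.11 log2 between diets and -0.040 ± 0.11 between birth weights, and an interaction of 0.28 ± 0.22. The interaction had an unadjusted p of 0.224 and an adjusted p of 0.823 (edgeR), the smallest of the 9 genes for that comparison.

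CD68 (chromosome 12, 52874754 to 52877256), a glycoprotein of the lysosome that accompanies phagocytosis and is shared with other macrophages, was 5.69, 7.58 and 10.7 CPM in VEG-NBW and 4.55, 6.94 and 8.02 in VEG-IUGR. It was 5.696, 7.48 and 11.05 in MILK-NBW and 4.92, 7.06 and 10.4 in MILK-IUGR. The VEG-IUGR range ended below the highest values of the other 3 groups but overlapped all of them. The birth weight estimate of CD68 was -0.16 ± 0.11 log2 (edgeR unadjusted p = 0.134, adjusted p = 0.9996), the diet estimate 0.065 ± 0.11 and the interaction 0.11 ± 0.22.

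No order of the groups was shared by the 9 genes. VEG-NBW had the highest mean for P2RY12, P2RY13, TREM2 and AIF1, MILK-NBW for CSF1R, TYROBP and CD68, and MILK-IUGR for CX3CR1 and ITGAM. The highest group mean was 1.05 to 1.26 times the lowest. The ranges of all 4 groups overlapped for each of the 9 genes, so no neighbours in these orders were separated. The share of all genes tested with such overlap is not given here, so the overlap is not read as particular to the 9. Over the members, the median log2 difference was 0.013 between diets, -0.072 between birth weights and 0.17 for the interaction, beside medians over all genes tested of -0.0035, -0.00064 and -0.0017. Without piglet 206 the medians of the members were 0.053, -0.015 and 0.26, and without piglet 207 they were -0.028, -0.086 and 0.14. Leaving aside P2RY13, the 95% intervals of the other 8 genes ran from 0.819- to 1.27-fold for diet and from 0.752- to 1.21-fold for birth weight. Those of the interaction ran from 0.667- to 1.67-fold.

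**Figure D2:**
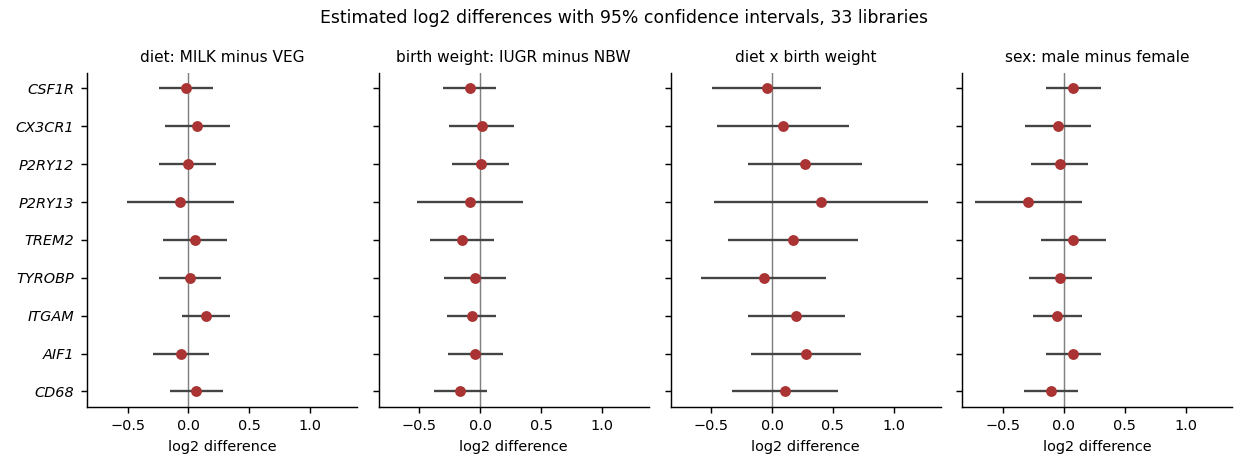
Log2 differences (points) with 95% confidence intervals (lines) of the 9 genes for diet, birth weight, their interaction and sex, from edgeR's fit to 33 libraries, with a vertical line at 0. Every interval includes 0, and the intervals of P2RY13 are the widest.

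The comparisons within 1 birth weight or 1 diet and between sexes gave the same counts. MILK-NBW against VEG-NBW called 0 of 9 members at an adjusted p under 0.05 (0% of all genes) and 0 of 9 unadjusted (against 6.67% of genes), with estimates from -0.28 for P2RY13 to 0.049 for TYROBP. MILK-IUGR against VEG-IUGR likewise called 0 of 9 (0% of genes; unadjusted 0 of 9 against 3.90%), from -0.043 for CSF1R to 0.24 for ITGAM (median 0.12, 7 of 9 above 0). Without piglet 206 all 9 of these estimates were above 0, with a median of 0.22. Without piglet 207, of the same group and the highest for P2RY12, 7 of 9 were above 0, with a median of 0.045. For VEG-IUGR against VEG-NBW, 0 of 9 were called (0% of genes) and 0 of 9 passed unadjusted (against 2.29%). All 9 estimates of that comparison were below 0, from -0.29 for P2RY13 to -0.0068 for TYROBP, with a median of -0.17, and with all 36 libraries 6 were below 0. The 9 genes moved together between piglets, as described next, so that a shared sign is not 9 separate observations. In MILK-IUGR against MILK-NBW, 0 of 9 were called (0% of genes; unadjusted 0 of 9 against 6.24%), from -0.11 for CD68 to 0.14 for P2RY12. These comparisons share groups with each other and with the interaction.

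Between sexes, 0 of 9 members were called against 0.163% of all genes (25 genes), and 0 of 9 passed unadjusted against 2.94%. The 16 females had 0.106, 0.621 and 1.08 CPM of P2RY13 and the 17 males 0.109, 0.5398 and 0.658, and 6 of the 16 females lay above every male while the lower ends of both ranges were alike. The log2 difference of males minus females was -0.29 ± 0.22 for P2RY13 and lay between -0.11 and 0.077 for the other 8 genes, with a median over the 9 of -0.035. The 95% intervals of those 8 genes ran from 0.797- to 1.27-fold.

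Single piglets were low or high in several genes at once. The coefficient of variation over the 33 piglets was 18.97% for ITGAM and 26.2% for TREM2, the ends of the range of 8 genes, and 39.1% for P2RY13. Counting error alone would give 3.34% for CSF1R, the gene with most counts, 9.76% for TYROBP and 31.6% for P2RY13.

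Piglet 206 (MILK-IUGR, female) was the lowest of 33 for CX3CR1 at 7.25 CPM, P2RY12 at 7.198, P2RY13 at 0.106, TREM2 at 4.55, TYROBP at 3.33, ITGAM at 5.87 and AIF1 at 5.35. It was also among the lowest 3 for CSF1R (29.8) and CD68 (4.92). Its library had a total of 18854865 counts and 28.0% unassigned read pairs, within the range of the others. Piglet 216 (VEG-NBW, male) was the highest for CSF1R at 81.6 CPM, CX3CR1 at 25.3, TREM2 at 16.3, TYROBP at 8.84 and AIF1 at 18.4. The same piglet was at the median for CD68 (7.23) and P2RY13 (0.556).

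**Figure D3:**
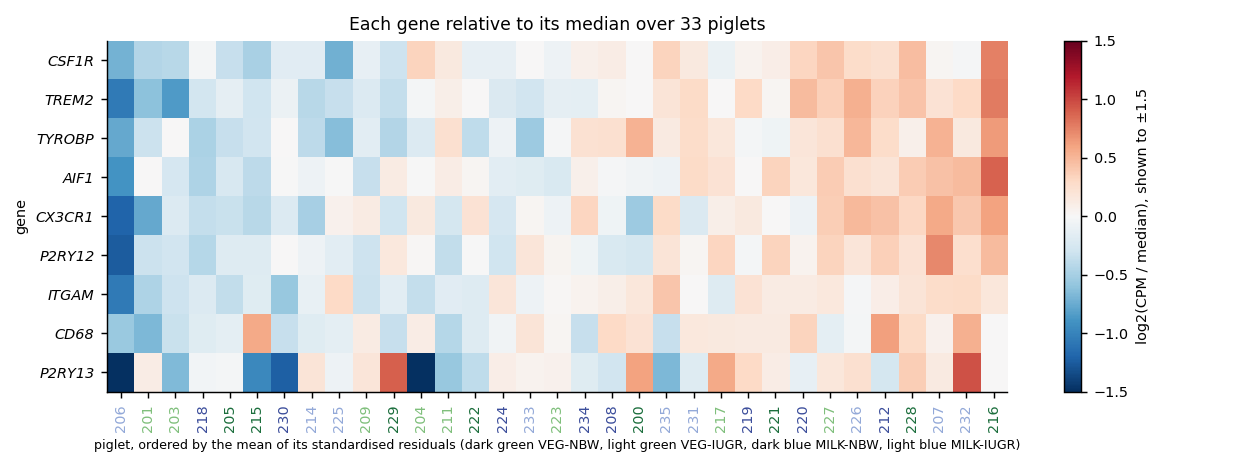
CPM of each gene (vertical axis) relative to its median on a log2 scale (colour, shown to 1.5 on either side of 0) in each of 33 piglets, ordered along the horizontal axis by the mean of the members' standardised residuals, with piglet numbers coloured by group. Piglet 206 at the left is below the median for all 9 genes, piglet 216 at the right is at or above it for all 9, and the groups are mixed along the axis.

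This co-variation was measured on log2 CPM (prior count 2) after the group means and sex had been removed. Of the 36 pairs of genes, all 36 had a positive Pearson's r over the 33 piglets, from 0.18 to 0.86 with a median of 0.58. In a permutation test with 100000 resamples, run on both sides, 28 pairs had an adjusted p under 0.05 for r and 23 for Spearman's rho, with Benjamini-Hochberg adjustment over the 36 pairs. The permutations treated the 33 piglets as independent, although littermates were among them and could not be identified. An r over 0.5 was found in 23 of the 36 pairs and in 3.46% of all pairs of genes tested.

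CSF1R and TREM2 were the most closely linked pair, with r = 0.86 and rho = 0.89 (permutation p = 1e-05 for each, the smallest that 100000 resamples can give, adjusted p = 3.6e-05 and 4.5e-05). The value of r without the 2 piglets farthest from the median of CSF1R was 0.86. CX3CR1 and P2RY12 followed with r = 0.83 and rho = 0.77 (0.74 without 2 piglets), and P2RY12 and AIF1 with r = 0.83 and rho = 0.75 (0.74 without 2 piglets). TREM2 and its adaptor TYROBP had r = 0.78 and rho = 0.77 (0.70 without 2 piglets). Each of these pairs had an adjusted permutation p of 3.6e-05 for r.

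Once the 2 most loosely linked genes, P2RY13 and CD68, were set aside, a choice made after the values were seen, the other 7 genes gave 21 pairs, all called by r and by rho as that choice favours, with r from 0.56 to 0.86 (median 0.70). Leaving out the 2 piglets farthest from the median of the first gene of each pair kept r between 0.38 and 0.86. For the pairs of CSF1R these were piglets 216 and 225, so piglet 206 stayed in, and r with ITGAM rose from 0.56 to 0.70. Without piglet 206 the 21 pairs had r from 0.36 to 0.84 (median 0.63), of which 20 were called by r and 20 by rho. The median r of these 21 pairs was 0.69 in the 16 VEG piglets, 0.76 in the 17 MILK piglets, 0.69 in the 16 NBW piglets, 0.74 in the 17 IUGR piglets, 0.78 in the 16 females and 0.70 in the 17 males. In each of these subsets all 21 values were above 0. Over all 36 pairs the median r was 0.54 in VEG (lowest -0.29, 33 above 0), 0.67 in MILK (lowest 0.36, 36 above 0), 0.47 in NBW (lowest -0.24, 34 above 0) and 0.66 in IUGR (lowest 0.14, 36 above 0). It was 0.69 in females (lowest 0.41, 36 above 0) and 0.44 in males (lowest -0.39, 34 above 0). No difference between subsets was tested.

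CD68 and P2RY13 were more loosely linked. The 8 pairs of CD68 had r from 0.21 to 0.50, 4 of them called by r and 2 by rho, and its closest partner was TREM2 (r = 0.50, rho = 0.48, adjusted permutation p = 0.00496 and 0.00818). The 8 pairs of P2RY13 had r from 0.18 to 0.58, 3 called by r and 0 by rho. Its pair with ITGAM fell from r = 0.58 to 0.30 without piglets 204 and 206, the 2 farthest from the median of P2RY13, and so rested on them. Without piglet 206, the pairs of P2RY13 with CSF1R and CX3CR1 had r of -0.035 and -0.041, and 21 of the 36 pairs were called in place of 28.

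**Figure D4:**
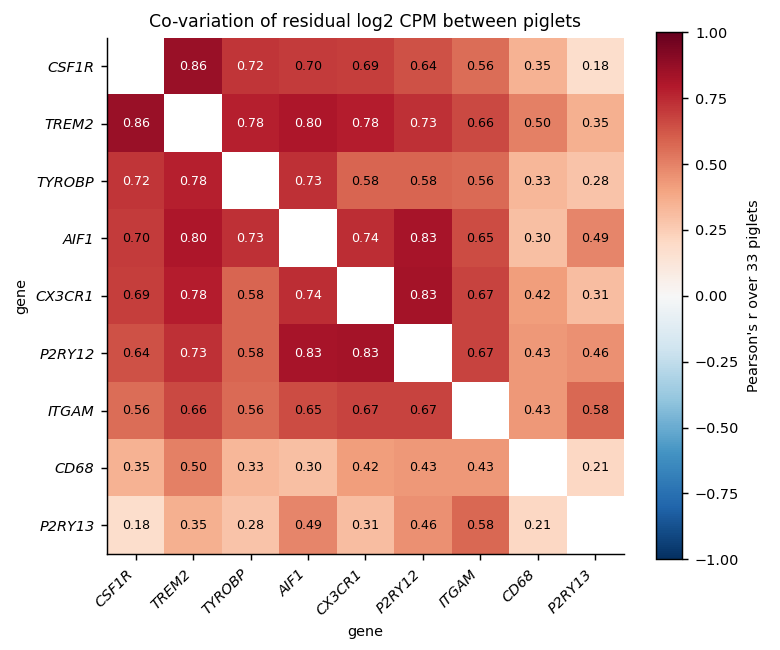
Pearson's r between each pair of the 9 genes (both axes) over 33 piglets, from log2 CPM after removal of group means and sex, with the value printed in each cell and the colour running from -1 to 1. The upper left block of 7 genes has r from 0.56 to 0.86, and the last rows, CD68 and P2RY13, are paler.

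The pattern of co-variation changed when the 3 libraries that stood apart were included. Over all 36 libraries the median r of the 36 pairs was 0.23 and 18 of the 36 values were below 0. The range ran from -0.75 (TYROBP and CD68) to 0.97 (CX3CR1 and ITGAM). By r 30 pairs were called, positive and negative ones together, and 17 by rho. In piglet 210, as given above, 3 members had counts and 6 were at 0. The mean of the members' standardised residuals had r = -0.15 with the unassigned share and -0.077 with the log2 total count over the 33. When both were also removed, the 36 pairs had r from 0.21 to 0.87 (median 0.65).

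The genes most like the 9 members were found by correlating every other gene with the mean of the members' standardised residuals over the 33 piglets. CALCR, the calcitonin receptor, came first with r = 0.94, and its CPM ran from 32.97 to 164. Without piglet 206 its r was 0.89, below LAPTM5 (0.91) and CD53 (0.90). Also in the first 10 were the tetraspanin CD53 (0.92), the lysosomal membrane protein LAPTM5 (0.90) and the fructose transporter SLC2A5 (0.90). The adenosine receptor ADORA3 (0.89), ITGB2, which pairs with ITGAM in complement receptor 3 (0.89), TAGAP (0.88), the exchange factor DOCK2 (0.88) and CYTH4 (0.87) were among them too. Of the first 10, 7 were also in the first 10 without piglet 206, and 5 with all 36 libraries, where ADORA3 had r = 0.11 and ITGB2 0.60. In all, 95 genes (0.619% of the 15347 others tested) had r over 0.7, and 4 had r under -0.7. An r over 0.5 was reached by 4.81% of the others (6.59% without piglet 206), which is the background for the lists that follow.

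Among 15 other microglia-enriched genes tested, 11 of 15 had r over 0.5 with the members (median 0.58). The 3 with most counts, the transporter SLCO2B1 (0.68), LAPTM5 (0.90) and the secreted OLFML3 (0.51), were all above it. No gene of this list was called in any of the 8 comparisons (edgeR, DESeq2 or voom). An unadjusted p under 0.05 was found in 3 of 120 tests of edgeR and 3 of voom. Per comparison, 2.19% to 6.67% of all genes reached it in edgeR, and 460 to 1659 of 15356 genes in voom. This is the background for such counts here and below.

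Ligands and partners of the members were split. Of 13 tested, 5 of 13 had r over 0.5 (7 of 13 without piglet 206), and 0 were called in any comparison by edgeR, DESeq2 or voom. Unadjusted, 5 of 104 tests passed in edgeR and 10 in voom. The 3 with most counts, all made largely by other cells, were APOE (0.27), a TREM2 ligand, CLU (0.48), and the inhibitory signal CD47 (-0.38). Named after their values were seen, both ligands of CSF1R lay near the cut, with r = 0.53 for CSF1 at 11.9 to 29.1 CPM and r = 0.51 for IL34 at 30.8 to 62.2 CPM. SYK, the kinase recruited by TYROBP, had r = 0.83. NRROS, which anchors latent TGF-beta on microglia, had r = -0.40. Of 11 transcription factors tested, 3 of 11 had r over 0.5 (4 of 11 without piglet 206), where IRF8 had 0.45 and ETV5 -0.46. Of these factors, 0 were called in any comparison by the same tools (unadjusted, 4 of 88 tests in edgeR and 8 in voom).

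Genes of activated microglia were present at a level that varied with the gene. CST7 and CLEC7A, which rise in disease-associated microglia, did not pass the filter and reached at most 0.304 and 0.423 CPM. Of the 14 tested, 5 of 14 had r over 0.5 with the members, among them the protease CTSD (0.54) and the tetraspanin CD9 (0.63), while CD63 had 0.44. Oligodendrocyte genes, given below, had r from 0.54 to 0.63 as well, and which cells made the RNA of CTSD, CD9 and CD63 was not tested. None of the 14 was called in any comparison by edgeR, DESeq2 or voom (unadjusted, 2 of 112 tests in edgeR and 6 in voom).

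**Figure D5:**
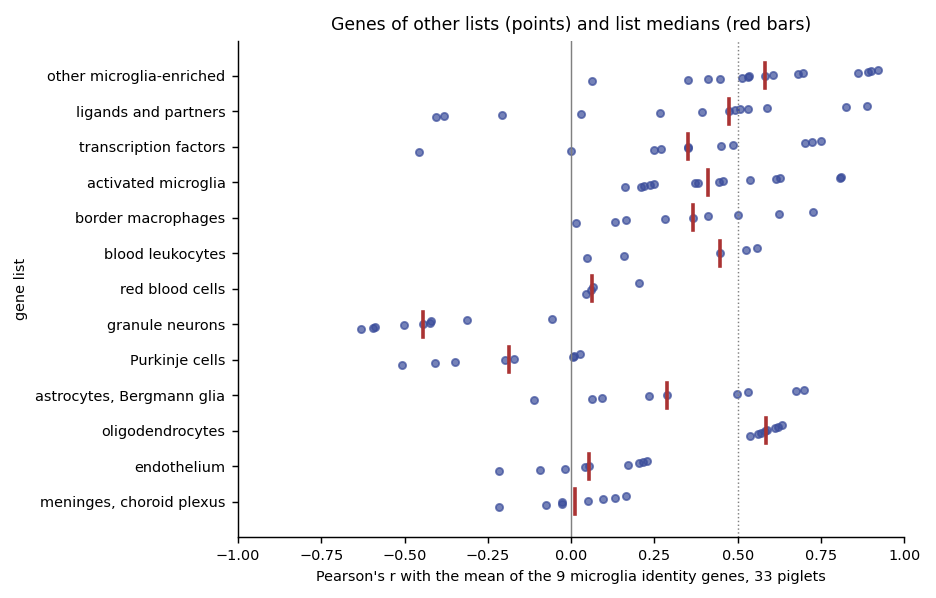
Pearson's r of each gene (points) of 13 lists (vertical axis) with the mean of the 9 microglia identity genes over 33 piglets (horizontal axis), with list medians as red bars and a dotted line at 0.5. The oligodendrocyte genes cluster between 0.54 and 0.63, the granule neuron genes all lie below 0, and endothelial and meningeal genes scatter around 0.

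Markers of other cells that share microglial genes were followed as well. Of 9 border macrophage markers, 3 of 9 had r over 0.5 with the members (1 of 9 without piglet 206), where STAB1, with most counts, had 0.015 and CD14 0.73, and their summed level was 39.8 to 69.7 CPM in VEG-NBW, 33.6 to 68.7 in VEG-IUGR, 34.9 to 57.3 in MILK-NBW and 30.5 to 51.3 in MILK-IUGR. Of 16 blood leukocyte markers listed, 13 had an identifier and 5 passed the filter. The T cell markers CD3E and CD3D were at no more than 0.324 and 0.367 CPM. LYZ stood at 0 in all 33 libraries, and whether its identifier can collect reads was not tested. The summed level of the leukocyte markers, 78.1 to 117 CPM, was mostly VCAN, which brain cells express too, and 2 of 5 tested had r over 0.5. The 4 red blood cell genes tested had a median r of 0.062 with the members and a summed level of 1.97 to 71.8 CPM.

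Genes of oligodendrocytes went with the members between piglets, and those of granule neurons ran the other way. All 8 oligodendrocyte genes tested had r over 0.5, from 0.54 to 0.63 (median 0.58, and 0.60 without piglet 206), with MBP at 0.63. Their summed level was 8851 to 32089 CPM in VEG-NBW, 9912 to 49439 in VEG-IUGR, 14946 to 32254 in MILK-NBW and 12712 to 33326 in MILK-IUGR. The 9 granule neuron genes had a median r of -0.44 (-0.63 to -0.058), with CBLN1 at -0.44 and ZIC1 at -0.60. Medians were -0.19 for 8 Purkinje cell genes, 0.053 for 9 endothelial genes and 0.012 for 8 genes of meninges and choroid plexus. For 9 astrocyte and Bergmann glia genes the median was 0.29 (3 of 9 over 0.5, 4 of 9 without piglet 206, GFAP at 0.67). No gene of these or the blood and border macrophage lists was called in the 8 comparisons by edgeR, DESeq2 or voom. At an unadjusted p under 0.05, edgeR passed 0 of 64 tests of oligodendrocyte genes, 1 of 72 of granule neuron genes and 0 of 72 of border macrophage genes. It passed 1 of 40 of leukocyte genes and 4 of 32 of red blood cell genes. Endothelial genes passed in 5 of 72 tests, and meningeal and choroid plexus genes in 9 of 64. The share of all genes was 2.19% to 6.67% per comparison. For red blood cell genes DESeq2 passed 5 tests and voom 2, and for endothelial genes 6 and 8. For meningeal and choroid plexus genes DESeq2 passed 12 and voom 0. When the mean levels of the oligodendrocyte and the granule neuron genes were removed along with group and sex, an adjustment chosen after these values were seen, the 36 pairs had r from -0.046 to 0.78 (median 0.46), of which 27 were called by r and 15 by rho. Among the 21 pairs of the 7 genes, 17 were called by r and 12 by rho.

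Piglet 206 was the lowest of the 33 for the summed members (68.4 CPM), for the summed other microglia-enriched genes (146) and for the summed border macrophage genes (30.5). For oligodendrocyte genes it was the fifth lowest, at 12712 CPM, and for granule neuron genes only 2 of the 33 were higher than its 5480. The part of tissue make-up in the level of the members in this piglet was not tested.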

How the data were processed

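Cerebellar RNA was sequenced in 36 piglets, and the authors deposited 1 file of raw counts per Ensembl pig gene for each, not normalized. The submitters' processing notes name Trim Galore, HISAT2, HTSeq, DESeq2 and build Sscrofa11.1, and the strand setting is not given in the sources used here. Read pairs without a gene (26.7% to 64.3%) stayed out of library sizes. Symbols came from a table of pig gene names (15029 identifiers matched), and positions from RefSeq genes on the same build; no sequence table was used here. Transcript lengths were not used, so levels are not compared between genes.

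The members and lists were chosen with earlier results of these data known. The quasi-likelihood test of edgeR 4.0.16 (in R 4.3.3, TMM factors, filterByExpr at 10 counts) included sex, with diet and birth weight fitted as main effects and the remaining comparisons from the 4 group means. Calls were made at a p-value under 0.05 after Benjamini-Hochberg adjustment. Libraries 202, 210 and 213 were left out by Dixon's ratio of the unassigned share within groups, since the study excluded 3 samples of low RNA integrity from the same groups without naming them. The ratio of piglet 213 was the smallest of the 3, at 0.508. The labels give no litter, so none was modelled. Correlations used 100000 permutations. Named genes were all members, the 10 most alike, and from each other list up to 5 called genes and the 3 with most counts; a few genes that this rule names are not reported here. Alternatives were all 36 libraries, leaving out piglet 207 too, no sex, DESeq2 1.42.0, its size factors, limma 3.58.1 voom with quality weights, and other filters. Tests were run first on simulated data.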

Additional observations from a re-analysis of the deposited data

Results flagged for a closer look

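In the MILK-IUGR group, ITGAM of piglet 206 was 5.87 CPM, and the next lowest of the 9 piglets had 11.3 CPM. The gap is 0.521 of the range of the group, above the 95% critical value of Dixon's ratio for 9 values. Of 36 such tests over 9 genes and 4 groups, 1 passed, where chance passes about 1 in 20. The same piglet was the lowest of the 33 for 6 other members, whose gaps did not pass.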

How the results depend on the processing

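No member was called in any of the 8 comparisons under any alternative run, and leaving out each of the 33 libraries in turn also called 0 members between sexes (lowest adjusted p 0.918, edgeR). Few genes were called at all in the alternatives. Among all genes tested it was at most 2 of 15356 (DESeq2, MILK-NBW minus VEG-NBW) in a comparison other than sex. Between sexes it was 7 of 13468 (at least 10 counts in every library) to 30 of 25708 (no filter). With at least 10 counts required in every library, P2RY13 was not tested. Signs of uncalled estimates changed. With all 36 libraries, log2 values were 0.027 (P2RY12) and -0.34 (TYROBP) for diet, 0.056 (CSF1R), -0.0067 (CX3CR1), -0.10 (P2RY12), 0.35 (TYROBP) and 0.20 (AIF1) for birth weight, -0.54 for the interaction in AIF1, and 0.86 (TYROBP), 0.47 (AIF1) and 0.20 (CSF1R) for VEG-IUGR minus VEG-NBW, and -0.70 for AIF1 in MILK-IUGR minus VEG-IUGR. The AIF1 interaction was 0.28 in the 33. With all 36, TYROBP had unadjusted p-values of 0.0221 (VEG-IUGR minus VEG-NBW), 0.0233 (MILK-IUGR minus VEG-IUGR) and 0.0479 (interaction), and AIF1 0.0475 (MILK-IUGR minus VEG-IUGR), all from edgeR, with adjusted p-values of 0.446 to 0.861. In that fit 1356 of 15330 genes had an unadjusted p under 0.05 for VEG-IUGR minus VEG-NBW. It was 1142 genes for MILK-IUGR minus VEG-IUGR and 879 for the interaction. Beyond the signs listed, others in the comparisons of 2 groups and of sexes changed with 36 libraries, without piglet 206 or 207, or with voom. The median log2 value of members for MILK-IUGR minus VEG-IUGR moved, with 36, to 0.28, and the median r of pairs to 0.23. Piglet 210, with 6 members at 0, is in these values.

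Without piglet 207, TYROBP was -0.028 for diet, and CX3CR1 and P2RY12 were -0.022 and -0.047 for birth weight. With voom, CSF1R was 0.024 for diet, CX3CR1 -0.034 and P2RY12 -0.027 for birth weight, CD68 -0.017 for the interaction, and TYROBP 0.083 for VEG-IUGR minus VEG-NBW. Without piglet 206, chosen after seeing the data, CSF1R was 0.011, P2RY12 0.044 and P2RY13 0.012 for diet, and CSF1R 0.011 for the interaction and 0.016 for MILK-IUGR minus VEG-IUGR. The cause of these changes was not tested. With DESeq2, its size factors and other filters the only sign among these estimates to change was that of CSF1R for MILK-NBW minus VEG-NBW, from 0.0019 to -0.0024, -0.0022, -0.0019 (no filter) and -0.0032 (at least 10 counts), and without sex as a covariate none of the 9 genes changed sign. No paired analysis was possible because the groups share no replicate numbers. Each piglet is 1 library, and littermates could not be identified. Counting error limits P2RY13 most.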
